A study of Mus musculus with 2 samples.

Results

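MicroRNAs (miRNAs) miR-137, miR-138, miR-153, miR-135a, miR-135b and miR-218 were followed in small RNA libraries of mouse brain, 1 from young and 1 from old animals. They are grouped here because each is known from other work to act in neurons on dendrites, synaptic vesicles or transmitter signalling. The members were found by name, without a star, in the study's list of known miRNAs, as mmu-miR-137, mmu-miR-138, mmu-miR-153, mmu-miR-135a, mmu-miR-135b and mmu-miR-218. For each name, the tag (a distinct sequence and its number of reads) whose counts in both libraries equalled those of the list was taken, and all tags that shared its first 18 nt were added. This start of 18 nt tells the 6 members from one another and from other miRNAs, while the reads behind it may differ in their 3′ ends. The 6 members are 6 of 558 listed names, 482 of which could be tied to a tag. All comparisons below were set beside 269 starts of known miRNAs that had at least 10 reads in a library, with star sequences, the less abundant strand of a hairpin, left out.

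The young library held the cDNA of 2 male C57BL/6J mice of 5 months and the old library that of 2 males of 24 to 25 months, and the labels name no treatment or genotype beyond the strain. RNA came from whole brain, so the files cannot place a miRNA at synapses, and fewer neurons and less of a miRNA in each neuron cannot be told apart. With 1 library per age there was no replicate check, so intervals and p-values cover counting error alone, compare the 2 libraries rather than the ages, and treat PCR copies as independent reads. Each interval is an exact 95% interval.

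A miRNA is cut from a hairpin precursor, whose arms pair with each other, and 1 strand is loaded into an Argonaute protein. Pairing of its bases 2 to 8, the seed, with messenger RNAs selects the messages whose translation or stability is lowered. miR-137 limits dendrite growth and neuronal maturation and lies in a locus associated with schizophrenia. miR-138 is enriched in dendrites, where it holds back the growth of spines through Lypla1, the enzyme that removes palmitate from proteins. miR-153 acts on proteins of vesicle release and on the alpha-synuclein and amyloid precursor messages. The miR-135 family acts on the serotonin transporter and a serotonin receptor in raphe neurons, and miR-218 is best known from motor neurons.

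The mature sequences from RefSeq (GRCm38.p6) are shown to set the seeds, in capitals, beside each other.
miR-137-3p: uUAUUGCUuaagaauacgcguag
miR-138-5p: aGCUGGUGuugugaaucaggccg
miR-153-3p: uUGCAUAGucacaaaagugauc
miR-135a-5p: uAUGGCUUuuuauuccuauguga
miR-218-5p: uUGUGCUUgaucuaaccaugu
The seed of miR-135b-5p was that of miR-135a-5p, and the other members had 4 further seeds, each their own. Among the RefSeq miRNAs, miR-7002-3p was the 1 further miRNA with a member's seed, that of miR-218. miR-135a and miR-135b differed at 1 of their first 18 bases, base 11 counted from the 5′ end. Reads with neither member's base at that position numbered 0 in the young and 1 in the old library, beside 350 and 307 reads with the base of miR-135a and 31 and 29 with that of miR-135b.

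The 6 miRNAs came from 9 hairpins in the mouse genome (NCBIM37, mm9). Mir137 lay at chr3:118136775-118136847 on the plus strand, outside annotated genes. miR-138 was encoded by Mir138-1 at chr9:122591994-122592092 and Mir138-2 at chr8:96848211-96848281, both on the plus strand and between genes, and its start had 1 further match on an unplaced contig. Mir153 lay at chr12:118489290-118489358 (plus strand) in an intron of Ptprn2, a gene of secretory granules. Mir135a-1 at chr9:106056455-106056544 (plus strand) lay in an intron of the lincRNA D030055H07Rik and opposite an exon of Glyctk, and Mir135a-2 at chr10:91534831-91534930 (minus strand) lay outside annotated genes. Mir135b was at chr1:134094665-134094761 (plus strand) in an intron of Lemd1. Mir218-1 at chr5:48615181-48615290 and Mir218-2 at chr11:35430318-35430427, both on the plus strand, lay in introns of Slit2 and Slit3, which code for axon guidance ligands. Of the 9 hairpins, 4 thus lay in introns of protein-coding genes on the same strand.

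The levels of the members spanned a wide range, and miR-138 stood far above the others. It had 34195 reads in the young and 27665 in the old library, or 7559.8 and 4155 RPM (reads per 1000000 total reads of the library), and ranked 14th and 18th of the 269 starts. miR-138 alone made up 93.7% of the reads of the 6 members in the young and 90.7% in the old library. miR-137 followed with 1179 young and 1720 old reads (261 and 258 RPM) and ranked 91st and 76th. miR-218 had 547 and 457 reads (121 and 68.6 RPM), and miR-135a had 350 and 307 reads (77.4 and 46.1 RPM). Both were thus higher in the young library on the RPM scale. miR-153 had 200 and 333 reads, or 44.2 RPM young and 50.01 RPM old. miR-135b was the lowest, with 31 and 29 reads (6.85 and 4.36 RPM). In the young library the counting intervals of all neighbours in this order were apart, with miR-135a (69.5 to 85.9 RPM) above miR-153 (38.3 to 50.8 RPM). In the old library miR-153 (44.8 to 55.7 RPM) and miR-135a (41.1 to 51.6 RPM) overlapped and could not be ordered.

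**Figure D1:**
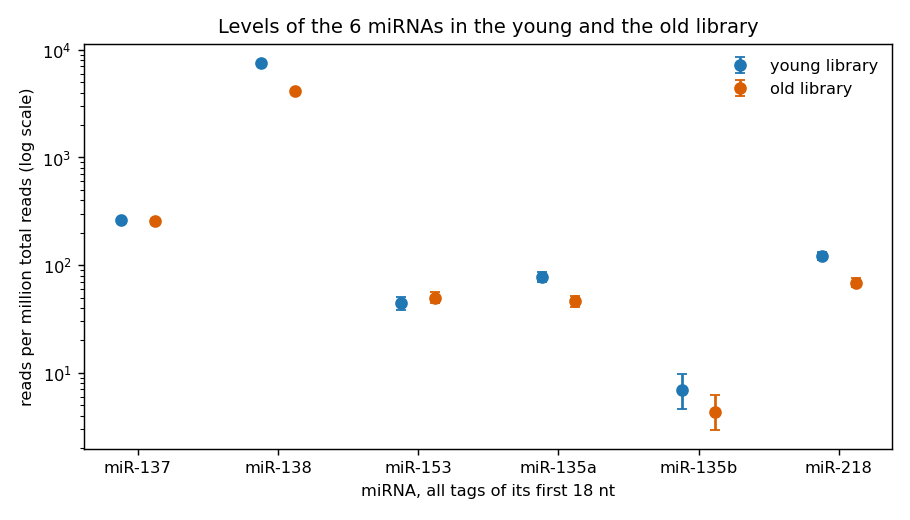
RPM (log axis) of the 6 miRNAs in the young and the old library, with exact 95% Poisson intervals of counting error as bars. miR-138 lies at 7559.8 (young) and 4155 (old), miR-137 is level at 261 and 258, and miR-153 and miR-135a overlap in the old library.

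Between the libraries the members fell into a group that was lower in the old one and a pair that was not, with miR-135b placed in neither. miR-138, miR-218 and miR-135a were lower in the old library, at 55.0%, 56.8% and 59.6% of their young levels. miR-137 and miR-153 stayed at 99.1% (interval 92.0% to 107%) and 113% (94.63% to 135%). miR-135b was at 63.5%, with an interval from 36.95% to 109%.

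On the log2 scale, the ratio of old to young RPM was -0.86 for miR-138 (interval -0.89 to -0.84). It was -0.82 for miR-218 (an old level of 50.01% to 64.4% of the young one), with an adjusted p = 1.07e-18 by the exact binomial test after Benjamini-Hochberg adjustment over the 269 starts. For miR-135a it was -0.75 (-0.97 to -0.52), with an adjusted p = 9.55e-11 in the same exact test. These 3 miRNAs fell between the libraries. The ratio of miR-135b was close to that of miR-135a, at -0.65 (-1.44 to 0.12), but its 60 reads left an adjusted p = 0.112 (exact binomial test). For miR-137 the ratio was -0.01 (-0.12 to 0.10; exact binomial test, adjusted p = 0.852) and for miR-153 it was 0.18 (-0.08 to 0.44; adjusted p = 0.207 in the exact test).

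Scaled by total reads, none of the 6 differed by 2-fold or more. Of the 269 known miRNAs, 30.9% were at least 2-fold lower and 2.23% at least 2-fold higher in the old library. In the exact test 3 of 6 members were lower and 0 were higher at an adjusted p under 0.05, where 65.8% of all known miRNAs were lower and 8.92% were higher. A lower level in the old library was therefore the common case, shared by 217 of 269 miRNAs (80.7%), whose median log2 ratio was -0.72 (quartiles -1.09 and -0.19). Relative to that median, miR-138 lay at -0.14, miR-218 at -0.10, miR-135a at -0.03 and miR-135b at 0.07 on the log2 scale. miR-137 and miR-153 lay 0.71 and 0.90 above it, and 79.2% and 85.9% of the known miRNAs had a lower ratio than theirs. miR-138, miR-218, miR-135a and miR-135b thus lay near the median of all known miRNAs, and the pair of miR-137 and miR-153 stood above the upper quartile of all ratios.

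**Figure D2:**
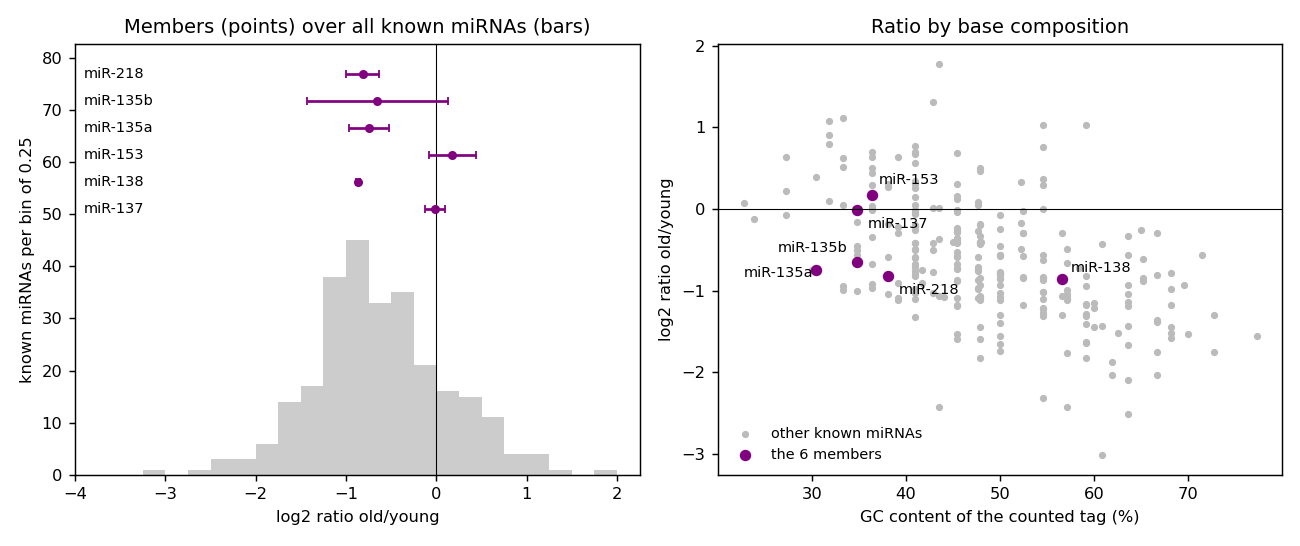
Left, log2 ratios of old to young RPM of the 269 known miRNAs (grey bars, count per bin of 0.25) with the 6 members as points and their exact 95% counting intervals. Right, the same ratio against the GC content of the counted tag. miR-137 (-0.01) and miR-153 (0.18) lie to the right of the bulk, and the other members lie near the median of -0.72.

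Scaling decides where 0 lies. With edgeR's TMM factors every log2 ratio moved up by 0.74, so that miR-137 turned to 0.73 and miR-153 rose to 0.92, both called higher. Under the same factors miR-135a (-0.01) and miR-218 (-0.08) were no longer called. miR-138 was still called lower, but its ratio shrank from -0.86 to -0.12. If libraries of an age differed by an assumed biological coefficient of variation of 0.2, none of the calls on miR-138, miR-135a and miR-218 held. At an assumed 0.1 these calls were kept. The spread between libraries of pooled mice could not be measured here.

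Base composition moved with the ratio across miRNAs, by -0.37 on the log2 scale per 10 points of GC (SE 0.037, least squares over 269 miRNAs, which share both libraries). The members were therefore also set beside the miRNAs within 5 points of their own GC content. miR-135a, with 30.4% GC the poorest in GC, lay at -0.75 where its 23 neighbours in GC (itself included) had a median of -0.01 and a lower quartile of -0.61. miR-218, with 38.1% GC, lay at -0.82 beside a median of -0.32 and a lower quartile of -0.77 over 78 miRNAs. Both were below the middle of the miRNAs of like composition. miR-138, with 56.5% GC, lay at -0.86 between the quartiles of its 59 neighbours (-1.25 and -0.52). miR-137 (quartiles -0.75 and 0.37 over 46 miRNAs), miR-135b (the same quartiles) and miR-153 (-0.70 and 0.30 over 74 miRNAs) also lay between the quartiles. The part of base composition in the ratios was not tested.

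Each miRNA was a mixture of tags of different length, and the tag counted in the study's list was a minor part of most. It held 33.6% of the reads of miR-137 in the young and 33.7% in the old library. For miR-138 it held 28.1% (interval 27.6 to 28.6) and 26.2% (25.6 to 26.7), for miR-135a 27.1% and 29.6%, and for miR-153 16.5% and 15.9%. miR-218 was the most uniform, with 67.8% (63.7 to 71.7) of its reads on the listed 21-nt tag in the young and 61.3% (56.6 to 65.8) in the old library. The listed tag was not the most frequent one for miR-153 and miR-135a, nor for miR-137 in the old library, where a 22-nt tag had 585 reads and the listed 23-nt tag 580. miR-153 was most often 23 nt long, 1 base longer than listed (74 young and 127 old reads against 33 and 53), and miR-135a most often 21 nt, 2 bases shorter than listed (155 and 119 reads against 95 and 91). Counted on the listed tag alone, the log2 ratios were -0.01 for miR-137, -0.97 for miR-138, 0.13 for miR-153, -0.62 for miR-135a, -0.94 for miR-135b and -0.96 for miR-218, so no direction changed.

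The most frequent forms of miR-153 and miR-135a, as deposited, are shown with the listed form under each.
miR-153, 23 nt: ttgcatagtcacaaaagtgatca
miR-153, 22 nt: ttgcatagtcacaaaagtgatc
miR-135a, 21 nt: tatggctttttattcctatgt
miR-135a, 23 nt: tatggctttttattcctatgtga
Reads of 24 nt were 22 of 200 young reads of miR-153 (interval 7.02% to 16.2%) and 52 of 333 old reads (11.9% to 19.97%), with overlapping intervals. Its mean length was 22.1 nt in the young and 22.3 nt in the old library. For the other 5 members the mean length ran from 21.3 to 22.2 nt in both libraries.

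**Figure D3:**
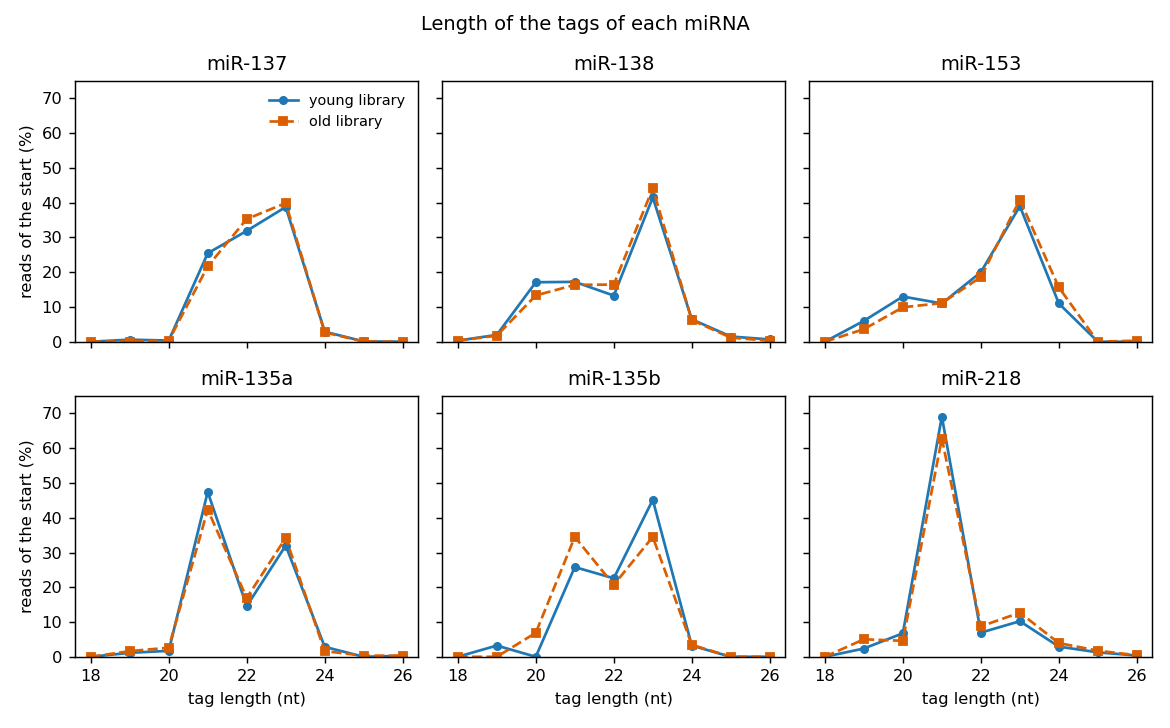
Share of the reads of each start (%) by tag length (nt) in the young (circles) and old (squares) library. miR-218 peaks at 21 nt (69.1% young, 62.8% old), miR-135a has peaks at 21 and 23 nt, and miR-137 spreads over 21 to 23 nt.

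By the 3′ ends that could be told from the hairpin, miR-138 and miR-218 stood apart from the other members. A read was called encoded where it matched a hairpin or its flank to the last base, and tailed where its last 1 to 3 bases were not those of any copy of the hairpin. An added base that equals the next base of the hairpin was thus counted as encoded. That next base was A after the 22-nt form of miR-153 and the 21-nt form of miR-137. After the 21-nt form of miR-138 it was C. Tails may therefore be hidden to a different degree in each member, which was not measured. In miR-138, 27.3% of young reads (interval 26.8 to 27.7) and 34.0% of old reads (33.4 to 34.6) were tailed. In miR-218 the tailed share was 12.6% (9.95 to 15.7) and 20.1% (16.5 to 24.1). For neither miRNA did the intervals of the libraries overlap. miR-137 had 7.38% and 7.09% tailed reads, miR-153 7.50% and 5.71%, miR-135a 5.43% and 4.89%, and miR-135b 2 of 31 and 2 of 29 reads, all with overlapping intervals.

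The difference between the libraries was set beside that of other well-read miRNAs. Over 112 known miRNAs with at least 200 reads in each library, the members included, the median tailed share was 13.1% young and 15.0% old. The difference had a median of 1.06 percentage points (quartiles -0.10 and 2.02) and was above 0 in 80 of them. miR-218 was 7.52 points higher in the old library, with 1 miRNA, miR-127, above it in this difference, and miR-138 was 6.73 points higher, with 3 above it. Tails of A alone made up 17.8% of young and 21.3% of old miR-138 reads, and 9.87% and 16.2% of miR-218 reads. Tails of mixed bases in miR-138, mostly AT, made up 7.21% young and 10.5% old.

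The most frequent tags of miR-138 are shown with the added bases in capitals.
listed, 23 nt: agctggtgttgtgaatcaggccg
trimmed, 20 nt: agctggtgttgtgaatcagg
trimmed, 21 nt: agctggtgttgtgaatcaggc
trimmed with A: agctggtgttgtgaatcaggcA
trimmed with AT: agctggtgttgtgaatcaggcAT
trimmed with AA: agctggtgttgtgaatcaggcAA
The tags in this order had 9611, 5670, 4964, 3167, 2105 and 1513 reads in the young library and 7238, 3558, 3885, 3294, 2571 and 1622 in the old one. The log2 ratios were -0.97, -1.23 and -0.91 for the encoded forms, and -0.50 for the form with A, -0.27 for that with AT and -0.46 for that with AA. The tails of these tags thus sat on the form shortened to 21 nt, and these 3 tailed forms were less reduced in the old library than the 3 encoded forms shown. Other forms ran the other way. The 20-nt form with an added A (630 and 423 reads) had a log2 ratio of -1.13, tails of a single T over all lengths had -1.02, and the encoded 22-nt form (769 and 696 reads) had -0.70.

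Over all reads of miR-138 the encoded ones had a log2 ratio of -1.01 (-1.04 to -0.98) and the tailed ones -0.55 (-0.59 to -0.50). For miR-218 the encoded reads had a log2 ratio of -0.95 (-1.15 to -0.75), and the tailed reads went from 69 to 92, a ratio of -0.14 (-0.61 to 0.33). The 3′ adapter began with T, so a single T at an end can be a base of the adapter left by trimming, and this bears on AT but not on A or AA. Tags with an undetermined base, 4.57% of reads in the young and 1.07% in the old library, could not be sorted by their ends. Among miR-138 reads they made up 0.468% young and 0.00361% old.

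**Figure D4:**
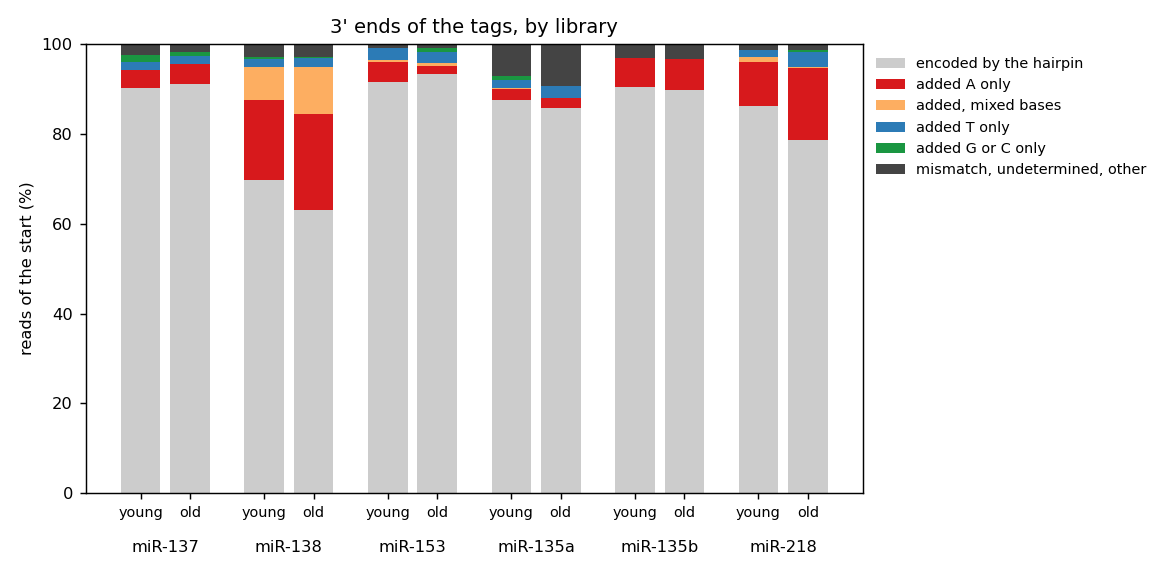
Shares of the reads of each start (%) by 3′ end in the young and the old library. The encoded share (grey) of miR-138 goes from 69.8% to 63.1% and that of miR-218 from 86.1% to 78.6%, with more tails of A (red) in both, while the other 4 members lie between 85.7% and 93.4%.

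The hairpins of 3 members exist in 2 copies whose guide strands are identical, and a minority of reads told the copies apart. The precursors are shown, with both mature arms in capitals, for the copies of miR-138 and miR-135a and for Mir218-2.
Mir138-1: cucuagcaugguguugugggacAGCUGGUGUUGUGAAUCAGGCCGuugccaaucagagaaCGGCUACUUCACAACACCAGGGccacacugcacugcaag
Mir138-2: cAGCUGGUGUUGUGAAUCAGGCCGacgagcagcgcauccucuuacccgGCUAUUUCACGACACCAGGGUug
Mir135a-1: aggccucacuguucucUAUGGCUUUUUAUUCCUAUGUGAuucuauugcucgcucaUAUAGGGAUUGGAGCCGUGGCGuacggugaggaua
Mir135a-2: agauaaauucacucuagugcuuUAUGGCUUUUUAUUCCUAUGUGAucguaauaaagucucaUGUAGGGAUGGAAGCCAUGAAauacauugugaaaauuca
Mir218-2: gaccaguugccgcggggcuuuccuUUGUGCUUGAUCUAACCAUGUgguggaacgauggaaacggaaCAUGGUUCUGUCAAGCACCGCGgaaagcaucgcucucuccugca
miR-138 reads that ran past the 23 shared bases into Mir138-1 numbered 1565 in the young and 1140 in the old library, and those into Mir138-2 numbered 515 and 396. The first base past the shared part is U in Mir138-1, which can also be the first base of the adapter, and A in Mir138-2, which can also be an added A. Reads that went at least 2 bases further numbered 197 and 105 for Mir138-1 and 0 and 1 for Mir138-2. For miR-218, encoded reads past the 22 shared bases came from Mir218-2 in 22 young and 18 old reads, and from Mir218-1 in 1 and 0.

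The opposite arms gave a second view of the copies. The strand opposite miR-135a on Mir135a-2, miR-135a-2-3p, had 340 young and 487 old reads, while that of Mir135a-1 had 7 and 9. miR-218-2-3p had 99 and 85 reads, and miR-218-1-3p had 1 and 2. Reads of the opposite arm thus came mostly from Mir135a-2 and Mir218-2. The opposite arms of the miR-138 copies were rare, with 9 and 9 reads for Mir138-1 and 6 and 4 for Mir138-2.

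The opposite arm of Mir135a-2 was close to the listed miRNA in reads in the young library and above it in the old one. Counted by perfect matches to the hairpins, miR-135a had 308 young and 264 old reads, so that miR-135a-2-3p made up 52.5% (interval 48.5 to 56.4) of the reads of both in the young and 64.8% (61.3 to 68.3) in the old library. The log2 ratio of miR-135a-2-3p, by perfect matches, was -0.04 (-0.24 to 0.16). For miR-135a it was -0.75 (-0.97 to -0.52) over all tags of its start and -0.78 (-1.02 to -0.53) over its encoded reads. The arms of 1 hairpin family thus differed in their ratio, with intervals that did not overlap, although miR-135a reads may also come from Mir135a-1. The GC content was 47.6% for miR-135a-2-3p and 30.4% for miR-135a. For miR-218 the intervals of the strands overlapped. miR-218-2-3p, whose first 18 bases matched the genome at 2 places, had a log2 ratio of -0.78 (-1.21 to -0.35) by perfect matches. Beside it, miR-218 had -0.82 over all tags of its start and -0.95 (-1.15 to -0.75) over its encoded reads. The share of miR-218-2-3p in both strands was 17.1% young (14.1 to 20.5) and 19.1% old (15.6 to 23.1). miR-153-5p, with 29 and 44 reads, held 13.4% and 12.3% of both strands, and miR-137-5p, with 15 and 20 reads, 1.26% and 1.11%.

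**Figure D5:**
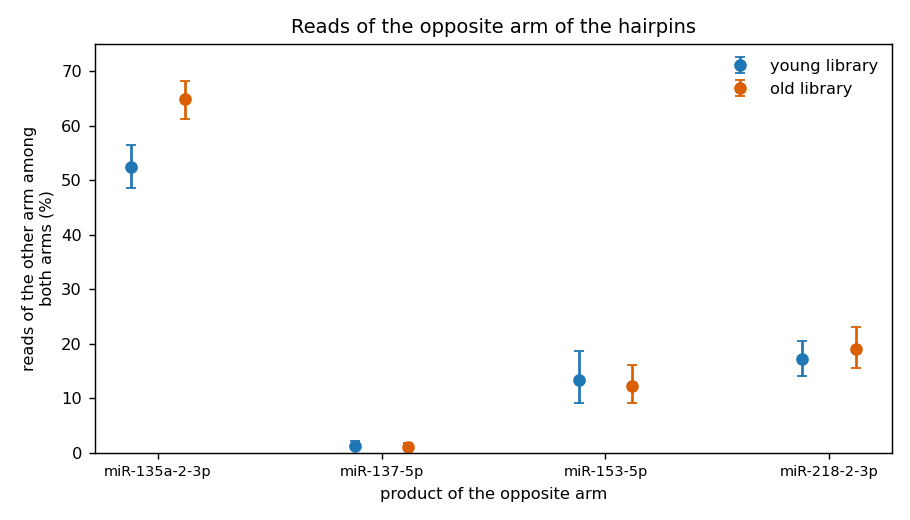
Reads of the opposite arm as a share (%) of the reads of both arms, by perfect matches to the hairpin, with exact 95% binomial intervals, for opposite arms with at least 10 reads in a library. The share of miR-135a-2-3p is 52.5% young and 64.8% old, with intervals apart, and those of miR-137-5p, miR-153-5p and miR-218-2-3p overlap between the libraries.

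The 5′ end, which sets the seed, was fixed in most members and shifted in some products. miR-137 began 1 base later in 76 young and 140 old reads and 2 bases later in 34 and 74. Starts other than the main one made up 9.75% (interval 8.12 to 11.6) of its perfect reads in the young and 12.4% (10.9 to 14.0) in the old library. For miR-138 this share was 0.247% and 0.240%, and for miR-153, miR-135a and miR-218 at most 2.66%. miR-135b had none among 28 young and 26 old reads. Among the opposite arms, the starts of miR-135a-2-3p, miR-218-2-3p and miR-153-5p with at least 10 reads over both libraries are shown, with the seed in capitals.
miR-135a-2-3p: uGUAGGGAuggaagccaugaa
miR-135a-2-3p, 1 base earlier: aUGUAGGGauggaagccauga
miR-218-2-3p: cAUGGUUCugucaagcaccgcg
miR-218-2-3p, 1 base later: aUGGUUCUgucaagcaccgcgg
miR-153-5p: gUCAUUUUugugacguugcagcu
miR-153-5p, 1 base later: uCAUUUUUgugacguugcagcua
miR-135a-2-3p had 291 young and 409 old reads at its listed start and 46 and 74 at the earlier one. miR-218-2-3p was nearly even, with 52 and 45 reads at the listed start and 46 and 40 at the later one. miR-153-5p had more reads at the later start, 17 and 24, than at the listed one, 11 and 18. The rare miR-135a-1-3p had 5 young and 1 old read at its listed start and 2 and 8 at the base before it, and miR-138-1-3p had 6 and 6 at its listed start and 3 and 3 at 2 bases later. Mir218-2 also gave 33 young and 20 old reads that spanned its loop. These began at bases 44 to 49 of the hairpin and ended at bases 64 to 72, so that some ran into an arm (bases 25 to 45 and 67 to 88).

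The known miRNAs nearest to each member, by distance in log2 RPM over the 2 libraries, were miR-872 and miR-335-5p for miR-137, miR-101a and miR-181a for miR-138, and miR-126-5p and miR-499 for miR-153. For miR-135a they were miR-879 and miR-299, for miR-135b miR-339-5p and miR-671-5p, and for miR-218 miR-488 and miR-151-5p. The closest pair was miR-138 and miR-101a, at a distance of 0.055, with 35377 young and 27177 old reads of miR-101a. The 2 neighbours of miR-137 had log2 ratios of -0.58 and 0.39, on either side of it.

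A list of 12 other miRNAs, taken as neuron-enriched without a check of their cell type in these data, gave the wider picture. The list was chosen with earlier results of these data known. All 12 were lower in the old library, as were 80.7% of all known miRNAs. Of the 12, 6 were at least 2-fold lower (30.9% of all known miRNAs). Their median log2 ratio was -0.89 beside -0.72 for all known miRNAs. The exact binomial test called 11 of 12 lower and 0 higher at an adjusted p under 0.05, beside 65.8% and 8.92% of all known miRNAs. The lowest log2 ratios were those of miR-129-5p (1408 young and 612 old reads, -1.76) and miR-134 (1247 and 689, -1.41), and the highest was that of miR-384-5p (117 and 154, -0.16). miR-137 (-0.01) and miR-153 (0.18) thus lay above all 12. miR-124, the neuronal miRNA by which brain RNA is known, had 178300 and 113206 reads.

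The libraries had 4523267 young and 6658732 old reads in tags of 17 to 26 nt. Markers of other cell types also differed between them, and their part in the members' ratios was not tested. A lower level was again the common case, with 80.7% of all known miRNAs lower and a median log2 ratio of -0.72. Beside it, the list medians were -0.76 (neuron), -0.71 (oligodendrocyte), -0.52 (vascular) and -0.92 (erythroid). Further from it lay those of pituitary (-1.66), choroid plexus (-1.09), blood and microglia (-0.24) and muscle (0.30). Where a list lay near the general median, loss of a cell type cannot be told from this general shift. For the lists further away, the cause was not tested. The neuronal miRNAs miR-124, miR-9 and miR-128 together went from 66625 to 33501 RPM, with all 3 lower. The 3 oligodendrocyte miRNAs went from 12266 to 7976 RPM, the 2 vascular ones counted of 4 from 5945 to 3281 RPM, and the 3 erythroid ones from 606 to 322 RPM. The 3 choroid plexus miRNAs went from 7157 to 6267 RPM and the 2 pituitary ones from 1187 to 578 RPM. The choroid plexus sum rested on miR-34c (log2 ratio -0.18), with miR-204 at -1.60 and miR-449a at -1.09. Likewise the vascular sum rested on miR-143 (-0.87), with miR-126-5p at -0.18. The sums were higher in the old library for the 2 muscle miRNAs counted of 3 (7454 to 10867 RPM) and the 3 counted of 4 of blood and microglia (29.4 to 41.0 RPM). The first rested on miR-1 (log2 ratio 0.64), with miR-206 at -0.04. Of the second, miR-142-5p had 127 and 268 reads, miR-223 had 4 and 5, and miR-155 had 2 and 0, where a count of 0 allows up to 3.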

How the data were processed

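Small RNAs of 18 to 30 nt from brains of young and old mice were sequenced as 1 library per age. Per the study's methods, the authors aligned the reads to mm9 with SOAP and removed the 3′ adapter. The deposited files hold, by their own description, the number of reads of every distinct tag, and the values were whole-number counts without normalization. Adapter trimming sets the last base of a tag, and a change of a base within a start moves a read out of its miRNA.

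Counts were summed over tags that shared their first 18 nt and divided by the total reads (6658732 old over 4523267 young, a factor of 1.47). Log2 ratios were given exact (Clopper-Pearson) 95% intervals. The test was a two-sided exact binomial test, with Benjamini-Hochberg adjustment over 269 known-miRNA starts with at least 10 reads in a library. edgeR's quasi-likelihood test could not be fitted, because an age had 1 library and no residual degree of freedom was left. Of 558 listed names, 199 had a single tag with their counts, 266 were settled by a RefSeq mature sequence, 17 by a RefSeq hairpin, and 76 were left out.

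The named miRNAs were the 6 members, the opposite arms of their hairpins and the 2 nearest other miRNAs of each. A list of miRNAs taken as neuron-enriched and lists of cell type markers were also named. The members and lists were chosen with earlier results of these data known. miR-127 and miR-7002-3p were named after their values had been seen. 4 marker miRNAs had no tag assigned (miR-126-3p, miR-145, miR-150 and miR-133a). 3′ ends were compared with the hairpin and 20 nt of flank in NCBIM37. Hairpins and mature sequences came from RefSeq. Alternatives were other scalings, tags, tests, minimums and a GC correction. No column of another sample was used. The statistics were tested on simulated Poisson counts without spread between mice or libraries. That simulation could not show how the p-values behave under such spread. Python 3.11.15 with scipy 1.17.1, R 4.3.3, edgeR 4.0.16 and DESeq2 1.42.0 were used.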

Additional observations from a re-analysis of the deposited data

How the results depend on the processing

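Of 84 values of the members' log2 ratios under alternatives, 62 kept their direction and side of the threshold. Where only the test or the assumed spread was changed, the ratio stayed the same by design and only the call could move. Scaling mattered most. miR-137 turned to 0.73 with TMM factors, 0.70 with DESeq2's size factors and 0.36 with the total without let-7 starts, and miR-153 was called higher at 0.92, 0.89 and 0.55. miR-135b, not called, turned to 0.088 with TMM and 0.057 with DESeq2. With TMM and DESeq2 the calls were lost on miR-135a (-0.0052 and -0.036) and miR-218 (-0.075 and -0.11). miR-138 stayed called lower but shrank to -0.12 (TMM), -0.15 (DESeq2) and -0.49 (without let-7). The number of known miRNAs at least 2-fold different fell from 89 to 51 (TMM, 15 lower and 36 higher), 49 (DESeq2, 15 lower and 34 higher) and 53 (without let-7, 36 lower and 17 higher), and no member was among them. With a spread between libraries assumed at 0.2 or 0.4 (biological coefficient of variation) the calls were lost on miR-138 (-0.86), miR-135a (-0.75) and miR-218 (-0.82). At 0.1 they were kept. After a linear GC correction miR-137 (-0.49) and miR-135b (-1.13) were called lower and miR-153, not called, turned to -0.24. Under the same correction miR-135a (-1.38) and miR-218 (-1.17) stayed called lower and, like miR-135b, were more than 2-fold lower. miR-138 stayed called lower but shrank to -0.54. With up to 1 mismatch miR-135b (-0.86) was also called lower. Over tags sharing 20 nt the listed tag of miR-138 held 29.2% young and 27.3% old. Judged by 1 hairpin copy alone, the tailed share of miR-138 was 28.8% or 32.4% young and 35.5% or 38.6% old. That of miR-218 was 16.5% young and 23.0% old by Mir218-1 alone. By Mir218-2 alone it stayed at 12.6% and 20.1%. In alternatives added after the data had been seen, miR-135a-2-3p turned to 0.70 (TMM), 0.67 (DESeq2) and 0.33 (without let-7). Causes were not tested. At 31 and 29 reads, miR-135b could not be told from no change or from a fall as large as that of miR-138. No paired analysis was possible because each age had 1 library.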
